A study of Mus musculus with 4 samples.

Results

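A set of 10 genes of the tumour necrosis factor (TNF) family was followed through mouse blood, namely the ligands Tnf, Lta, Ltb, Cd40lg, Tnfsf8 and Tnfsf13b and the receptors Cd40, Tnfrsf1b, Tnfrsf13b and Tnfrsf13c. They were chosen by name, with earlier results of these data known. All 10 are among the 14697 genes of the deposited table of unique molecular identifiers (UMIs). Each gene was read in B, T, natural killer (NK) and myeloid cells, which were picked by the raw UMIs of other genes, with young and old samples kept apart. Peripheral blood was taken from C57BL/6 female mice aged 4 months (young) or 24 months (old), with no other treatment or allele named. There were 2 samples per age, and since the blood of 2 mice was pooled in each, n = 2 pools throughout. Cells were separated on a density medium, red cells were lysed, and the 3′ ends of the transcripts of single cells were counted in droplets (10x Genomics).

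Ligands of the TNF family are made mostly as trimers on the cell surface, some of which are released, and they signal through receptors on neighbouring cells, often to the NF-kappa B transcription factors. The CD40 ligand of activated helper T cells acts on CD40 of B and myeloid cells. The B cell activating factor BAFF, encoded by Tnfsf13b and made largely by myeloid and stromal cells, keeps mature B cells alive through the BAFF receptor (Tnfrsf13c) and also binds TACI (Tnfrsf13b). Lymphotoxins shape lymphoid tissue, TNF drives inflammation through its receptors, of which Tnfrsf1b encodes the second, and Tnfsf8 encodes the ligand of CD30.

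Of the ligand genes, 3 are neighbours on chromosome 17 of the GRCm38 build, where Ltb (35194439 to 35196320, plus strand), Tnf (35199381 to 35202007, minus strand) and Lta (35203165 to 35205351, minus strand) lie within 10913 bases. Tnfsf8 (4: 63831308 to 63861347) and Tnfrsf1b (4: 145213463 to 145246870) are both on the minus strand of chromosome 4. Cd40 is on chromosome 2 (165055627 to 165072948), Cd40lg on X (57212143 to 57224042), Tnfsf13b on 8 (10006467 to 10039072) and Tnfrsf13b on 11 (61126755 to 61149372), all on the plus strand, and Tnfrsf13c is on the minus strand of 15 (82221743 to 82224369). No other protein-coding gene overlapped any of the 10 in GENCODE M21. The bases upstream of Ltb and Tnfsf8 are shown because these ligand genes passed the test of age in T cells. They are RefSeq sequences of GRCm38.p6, written 5′ to 3′ on the strand of the gene and ended at the first base before the annotated gene, at chr17:35194257-35194438 (plus strand) and chr4:63861348-63861534 (minus strand), and capitals mark the match to the wider kappa B motif.
Ltb: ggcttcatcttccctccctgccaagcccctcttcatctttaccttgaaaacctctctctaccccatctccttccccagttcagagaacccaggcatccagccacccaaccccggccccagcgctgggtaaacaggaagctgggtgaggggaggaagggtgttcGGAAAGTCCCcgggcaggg
Tnfsf8: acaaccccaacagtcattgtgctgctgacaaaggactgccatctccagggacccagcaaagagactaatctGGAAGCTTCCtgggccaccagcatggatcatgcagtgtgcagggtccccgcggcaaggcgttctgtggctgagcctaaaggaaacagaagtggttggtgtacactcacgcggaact

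The motif searched was the 10-base kappa B consensus and a wider form that reads the same on both strands and accepts A or G at the third base. The consensus was searched on both strands, and its matches are among those of the wider form. In the 250 bases before the start, the consensus was found in 7.251% and the wider form in 9.549% of 32851 RefSeq promoters. Of the 9 promoters listed for 8 of the genes, 3 held the wider form, those of Ltb, Tnfsf8 and Lta, and 1 held the consensus, that of Ltb, where it is read on the opposite strand. A match is a stretch of letters and is no evidence of binding.

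Cells were assigned when the marker genes of one class summed to at least 2 UMIs and those of each other class to at most 1, except that T cells could hold any number of NK marker UMIs and NK cells no T marker UMI, which placed 11039 of 14588 cells (75.7%). The gates held 7581 B cells (Cd79a, Cd79b), 2214 T cells (Cd3d, Cd3e, Cd3g), 308 NK cells (Ncr1, Klrb1c, Klre1) and 936 myeloid cells (Csf1r, Lyz2, Ms4a6c, Clec4a3). The UMI total per sample was 9521253 to 18658072, and the median per cell was 2245 in B, 2723 in T, 2059.5 in NK and 3423 in myeloid cells. Independent markers followed the gates: Ms4a1, the gene of CD20, stood at 1108 to 1288 CPM in B cells and at 0 to 85.5 CPM in the other classes (CPM being the UMIs of a gene for every 1000000 UMIs of the cells in question), and Pax5, a B cell transcription factor, at 104 to 132 CPM in B cells and at 0 to 6.16 CPM in the others. The samples were not alike, as 37.0% and 27.6% of old cells but 13.3% and 18.4% of young cells fell outside the gates, most of the old ones for holding 2 or more UMIs of both B and myeloid marker genes. Platelet genes (Ppbp, Pf4, Gng11) summed to 0.734 and 9.31 CPM in young and 321 and 252 CPM in old B cells, and haemoglobin genes to 16089 and 86165 CPM in young and 45907 and 51766 CPM in old B cells. Of 14480 barcodes, 108 occurred in more than 1 library. UMIs of a gene were summed over the cells of a class in each sample, and the quasi-likelihood test of edgeR was run on the sums, with p-values adjusted by Benjamini-Hochberg over all genes with at least 20 UMIs, a gene being called at an adjusted p under 0.05. A lower sum in a class can come from fewer cells that use a gene or from less RNA per cell, and these cannot be told apart from the sums.

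**Figure D1:**
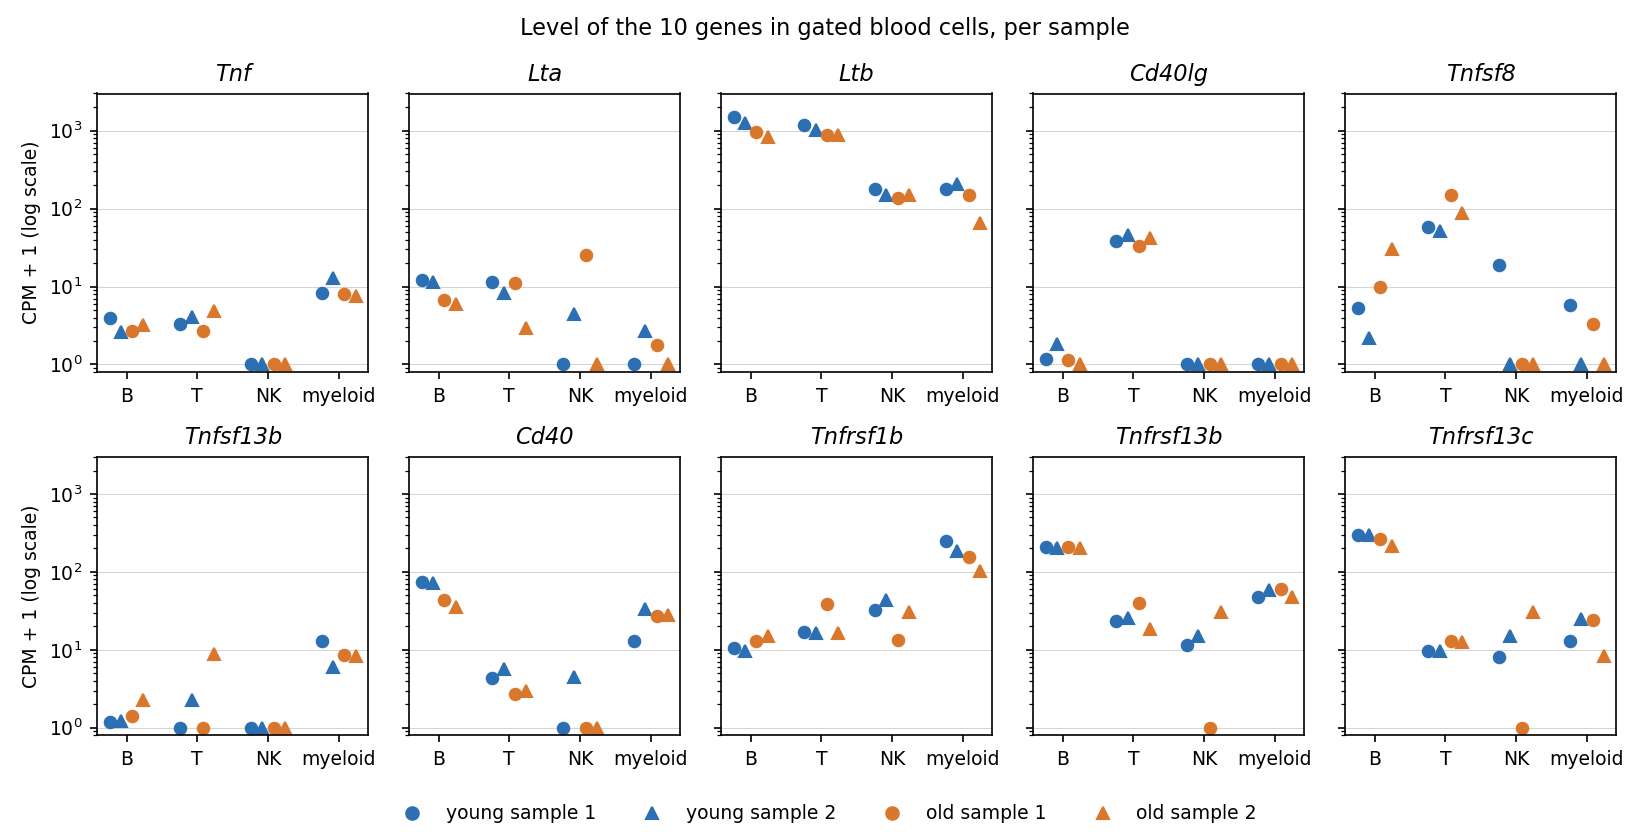
Level of each gene as CPM + 1 on a log scale (vertical axis) in B, T, NK and myeloid cells (horizontal axis), 1 point per sample, with young samples in blue and old samples in orange. Cd40 and Tnfrsf13c stand highest in B cells, Cd40lg and Tnfsf8 in T cells and Tnfrsf1b in myeloid cells, and a point at 1 is a sample with no UMI of the gene.

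The first question was which class makes which ligand or receptor, and it was tested over the 16 sums of 4 classes and 4 samples with the sample as a block. Between B and T cells 6 of the 10 genes were called, where 31.2% of all genes were. The other pairs gave 5 of 10 for B against NK cells (21.8% of all genes), 9 for B against myeloid cells (48.8%), 4 for T against NK cells (11.1%), 10 for T against myeloid cells (43.5%) and 4 for NK against myeloid cells (25.9%). Each gene is taken in turn below, the ligands first.

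Ltb, which encodes the membrane anchor of the lymphotoxin heterotrimer, was read in most B and T cells and in fewer NK cells. In B cells its level was 1481 and 1269.8 CPM in the young and 955 and 821 CPM in the old samples. In T cells it was 1165 and 1021 CPM in the young and 872 and 884 CPM in the old samples. NK cells held 134 to 177 CPM and myeloid cells 64.3 to 208 CPM, so that the B and T samples all stood above the NK and myeloid samples. B and T cells did not differ beyond their spread (log2 fold change 0.22, SE 0.13, adjusted p = 0.235), nor did NK and myeloid cells (-0.42, SE 0.21, adjusted p = 0.135), while B cells stood 7.76-fold above myeloid cells (adjusted p = 3.64e-20). A UMI of Ltb was found in 87.4% of B, 87.7% of T and 24.0% of NK cells, and in 64.6%, 61.2% and 11.04% after each cell had been thinned to 1000 UMIs.

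Lta, which encodes the soluble lymphotoxin alpha, was sparse, with 176 UMIs in all B cells and 56 in all T cells. Its level was 11.2 and 10.5 CPM in young B cells and 5.66 and 4.98 CPM in old B cells. T cells held 1.94 to 10.5 CPM and did not differ from B cells beyond the spread (log2 fold change 0.12, SE 0.32, adjusted p = 0.842). Myeloid cells gave 2 UMIs and NK cells 3 UMIs over all samples. B cells were called above myeloid cells (adjusted p = 7.98e-05), and so were T cells (adjusted p = 0.000483).

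Tnf itself was hardly read in this unstimulated blood. Its level in myeloid cells was 7.29 and 11.9 CPM in the young and 6.93 and 6.59 CPM in the old samples, from 27 UMIs in all. Every B and T sample lay lower, with 1.62 to 2.94 CPM in B and 1.69 to 3.88 CPM in T cells, and myeloid cells were called above B cells by 3.75-fold (adjusted p = 0.000410) and above T cells by 3.16-fold (adjusted p = 0.00969). A UMI was found in 2.67% of myeloid cells. No Tnf UMI was counted in the 308 NK cells, and a count of 0 there allows up to 4.18 CPM, which covers the levels in B and T cells.

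Cd40lg marked T cells. Its level was 37.5 and 45.3 CPM in young and 32.2 and 40.7 CPM in old T cells. All 4 B samples lay between 0 and 0.810 CPM, and NK and myeloid cells held no UMI. T cells were called above B cells (log2 fold change of B against T -6.79, SE 0.38, adjusted p = 4.79e-17), and stood at least 46.9-fold above myeloid cells and at least 9.58-fold above NK cells when 3 UMIs are taken as the limit of a count of 0 over a class. A UMI was found in 10.3% of T cells and in 0.0791% of B cells, a type that should lack the gene. Within T cells, Cd4+ cells (397 cells with a Cd4 UMI and none of Cd8a or Cd8b1) held 67.8 and 74.1 CPM in the young and 91.1 and 52.4 CPM in the old samples, while Cd8+ cells held 0 to 10.4 CPM. The difference between these subsets was called (11.7-fold, adjusted p = 2.03e-17), and Cd40lg was the single one of 7 genes tested to pass (4.27% of all genes).

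Tnfsf8, the gene of the CD30 ligand, was highest in T cells as well. It stood at 56.3 and 50.9 CPM in young and 149 and 87.2 CPM in old T cells. In B cells it was 4.22 and 1.21 CPM in the young and 8.94 and 29.6 CPM in the old samples. Every T sample lay above every B sample, with T cells 9.73-fold above B cells (adjusted p = 3.66e-12) and 12.7-fold above NK cells (adjusted p = 0.000146). Both NK and myeloid cells gave 5 UMIs in all, and these 2 classes did not differ beyond their spread (adjusted p = 0.251). Cd4+ and Cd8+ T cells did not differ either in a fit that averages over the ages (log2 fold change 0.15, SE 0.21, adjusted p = 0.878). Young Cd4+ cells (58.6 and 58.8 CPM) lay below young Cd8+ cells (66.8 and 71.6 CPM). Old Cd4+ cells (205 and 196 CPM) lay above old Cd8+ cells (88.4 and 46.6 CPM). These orders rest on 88 UMIs in all Cd4+ and 158 UMIs in all Cd8+ cells and were not tested within an age.

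Tnfsf13b, the gene of BAFF, had 27 UMIs in 27 of the 936 myeloid cells (2.88%). Its level there was 12.1 and 5.08 CPM in the young and 7.70 and 7.42 CPM in the old samples. B cells held 10 UMIs over 7581 cells, and myeloid cells were called above them by 14.2-fold (adjusted p = 6.64e-06). They were also called above T cells by 5.13-fold (adjusted p = 0.0113), although old T sample 2 reached 7.75 CPM from few UMIs and overlapped the myeloid samples. NK cells held none, which allows 4.18 CPM, and their difference from myeloid cells was not called (adjusted p = 0.0520).

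Cd40, the receptor through which helper T cells license B and antigen-presenting cells, was highest in B cells at 73.8 and 71.5 CPM in the young and 42.5 and 34.6 CPM in the old samples. Myeloid cells came next with 12.1 and 32.2 CPM in the young and 26.2 and 27.2 CPM in the old samples. All B samples lay above all myeloid samples, although the old B samples came near to them, and B cells stood 1.94-fold higher over all samples (adjusted p = 0.000147). T cells held 1.69 to 4.74 CPM, from which B cells differed by 17.0-fold (adjusted p = 3.35e-16), and NK cells gave a single UMI. A UMI was found in 14.5% of B, 9.08% of myeloid and 1.04% of T cells, and in 6.16%, 2.03% and 0.452% of cells thinned to 1000 UMIs.

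Tnfrsf13c, the receptor specific for BAFF, had 70.9% of its UMIs in gated B cells (7581 of 14588 cells), beside 67.2% for Cd40, 60.1% for Tnfrsf13b and 17.4% for Tnfrsf1b. Its level in B cells was 298 CPM in both young samples and 266 and 212 CPM in the old ones. T cells held 8.56 to 11.9 CPM, myeloid cells 7.42 to 23.7 CPM and NK cells 0 to 29.9 CPM. B cells stood 29.8-fold above T cells (adjusted p = 3.88e-23), 15.9-fold above myeloid cells (adjusted p = 9.53e-21) and 33.0-fold above NK cells (adjusted p = 1.50e-16). T and NK cells did not differ beyond their spread (adjusted p = 0.947), nor did NK and myeloid cells (adjusted p = 0.139).

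Tnfrsf13b, the gene of TACI, was read at 210.1 and 201 CPM in young and 205 and 199 CPM in old B cells, which places the 4 samples within a narrow range. Myeloid cells held 46.2 to 58.5 CPM, T cells 17.4 to 39.0 CPM and NK cells 0 to 29.9 CPM. B cells were called above myeloid cells (3.87-fold, adjusted p = 2.85e-14), myeloid above T cells (2.12-fold, adjusted p = 1.69e-05) and T above NK cells (2.59-fold, adjusted p = 0.0264). The NK level rested on 9 UMIs in all, and old NK sample 2, at 29.9 CPM, lay within the range of the T samples. A UMI of Tnfrsf13b was found in 41.4% of B cells, and in 18.7% when thinned.

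Tnfrsf13b outnumbered Tnfrsf13c in T and myeloid cells, and Tnfrsf13c outnumbered Tnfrsf13b in B cells. For each UMI of Tnfrsf13c, B cells held 0.705 and 0.673 UMIs of Tnfrsf13b in young samples 1 and 2, then 0.772 and 0.940 in old samples 1 and 2. T cells held 2.62, 2.85, 3.29 and 1.5 UMIs in that order of samples, and myeloid cells held 3.80, 2.43, 2.53 and 6.33. In every sample the ratio was higher in T and in myeloid cells than in B cells, although old T sample 2 rested on 9 and 6 UMIs and its interval for the share of Tnfrsf13b (32.3% to 83.7%) covers the shares of the B cells. NK cells held 0 to 4 UMIs of each gene in a sample, too few to tell their ratio from that of any other class. UMIs of Cd79a, a B cell gate gene, were also counted in T (28 to 195 a sample) and myeloid cells (26 to 90), and the part of ambient RNA in these values was not tested. Of 7581 B cells, 1729 had a UMI of both receptors, 293 had one of Cd40 too, and 5394 had one of at least 1 of the 3 genes.

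**Figure D2:**
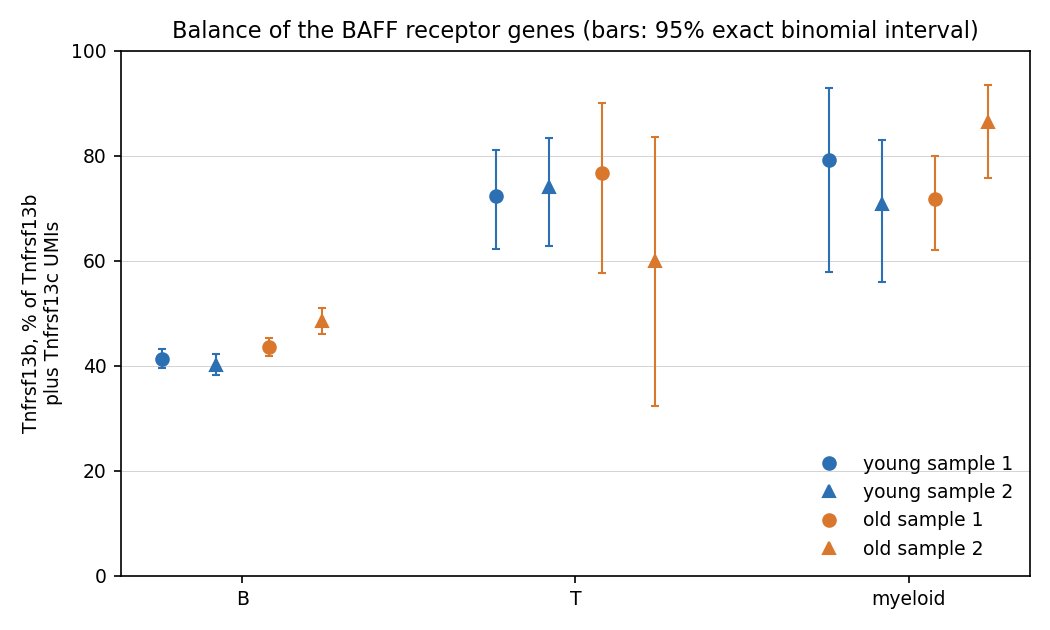
Share of Tnfrsf13b among the UMIs of Tnfrsf13b and Tnfrsf13c together, in percent (vertical axis), in B, T and myeloid cells (horizontal axis), 1 point per sample with its 95% exact binomial interval, which covers counting error only. The B cell samples lie between 40.2% and 48.5% and the T and myeloid samples between 60.0% and 86.4%.

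Tnfrsf1b, the gene of TNF receptor 2, was a myeloid gene in this blood. Its level in myeloid cells was 245 and 183 CPM in the young and 156 and 102 CPM in the old samples. NK cells held 12.2 to 42.0 CPM, T cells 15.5 to 37.3 CPM and B cells 8.71 to 13.9 CPM, so that every myeloid sample lay above every other sample. Myeloid cells stood 14.9-fold above B cells (adjusted p = 1.78e-20), 8.96-fold above T cells (adjusted p = 1.40e-15) and 6.57-fold above NK cells (adjusted p = 5.51e-09). T cells were called above B cells by 1.66-fold (adjusted p = 0.0220), and T and NK cells did not differ beyond their spread (adjusted p = 0.609). A UMI was found in 40.2% of myeloid and 3.07% of B cells.

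The second question was whether these genes change with age within a class. In B cells 8 of the 10 genes had enough UMIs to be tested and 2 were called, where 3.38% of all genes were. In T cells 2 of 8 were called (2.82% of all genes), in NK cells 0 of 2 (0.264%) and in myeloid cells 0 of 7 (0.504%). By unadjusted p under 0.05 the NK count was still 0 and the myeloid count 2, with 217 and 904 genes of all tested below it. DESeq2 called 0 of the genes in NK and in myeloid cells.

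Cd40 fell in B cells. The samples given above did not overlap, and the log2 fold change was -0.84 (SE 0.13, adjusted p = 0.0212), a 1.80-fold lower level in the old. After thinning to 1000 UMIs, 7.61% and 7.95% of the young B cells carried a Cd40 UMI, beside 4.45% and 3.80% of the old ones. The call was lost with a stricter gate (log2 fold change -0.80, adjusted p = 0.0581). It was also lost without young sample 1 (log2 fold change -0.88) and without young sample 2 (-0.82). In myeloid cells Cd40 overlapped between the ages (log2 fold change 0.26, SE 0.40, adjusted p = 0.857), and the difference between the age changes of B and myeloid cells did not pass the test (adjusted p = 0.122).

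Ltb fell in B and in T cells. The log2 fold change was -0.57 in B cells (SE 0.11, adjusted p = 0.0454) and -0.43 in T cells (SE 0.11, adjusted p = 0.0467), with both old samples below both young ones in each. These calls lay close to the threshold, and 8 of 16 alternatives kept the call in B and 7 of 16 in T cells, and in both classes the call was lost without either young sample. It was also lost without cells that held platelet RNA, though the log2 fold change was then -0.54 in B (adjusted p = 0.0616) and -0.44 in T cells (adjusted p = 0.0533), near the values with them. An Ltb UMI was left in 73.7% and 68.4% of young B cells after thinning, beside 58.5% and 53.6% of old B cells. In myeloid cells Ltb was 179.8 and 208 CPM in the young and 150.1 and 64.3 CPM in the old samples, lower in both old samples but not called (log2 fold change -0.77, SE 0.30, adjusted p = 0.360). NK cells overlapped (-0.04, SE 0.37, adjusted p = 0.991).

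Tnfsf8 rose in T cells by 2.05-fold (log2 fold change 1.03, SE 0.22, adjusted p = 0.0190), with no overlap between the ages. Thinned T cells carried a UMI in 4.69% of each young sample, beside 14.1% and 7.39% in the old samples. The call was lost without old sample 1 (log2 fold change 0.62, adjusted p = 0.197) and with the stricter gate (0.83, adjusted p = 0.140). In B cells both old samples also lay above both young ones, and the fitted log2 fold change was 2.81 (SE 0.71), but the adjusted p was 0.0886. That value rested on unequal old samples, since 119 of the 216 UMIs came from old sample 2. The log2 fold change was 1.70 without old sample 2 and 3.52 without old sample 1. Tnfsf8 in B cells passed with thinned cells (3.29, adjusted p = 0.00996) but not with DESeq2 (2.93, adjusted p = 0.157).

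The remaining genes did not pass in any class. In B cells Lta was lower in both old samples (log2 fold change -0.96, SE 0.24, adjusted p = 0.0854), Tnfrsf13c likewise (-0.26, SE 0.12, adjusted p = 0.318), and Tnfrsf1b was higher (0.55, SE 0.22, adjusted p = 0.250). Tnfrsf13b in B cells overlapped between the ages (0.04, SE 0.11, adjusted p = 0.884), as did Cd40lg in T cells (-0.30, SE 0.26, adjusted p = 0.666) and Tnfsf13b in myeloid cells (0.00, SE 0.66, adjusted p = 1). Tnfrsf1b was lower in both old myeloid samples (-0.62, SE 0.22, adjusted p = 0.305). In the same myeloid cells the macrophage genes C1qa, C1qb and C1qc summed to 809 and 559 CPM in the young and 86.2 and 1527 CPM in the old samples, and their part in these values was not tested.

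**Figure D3:**
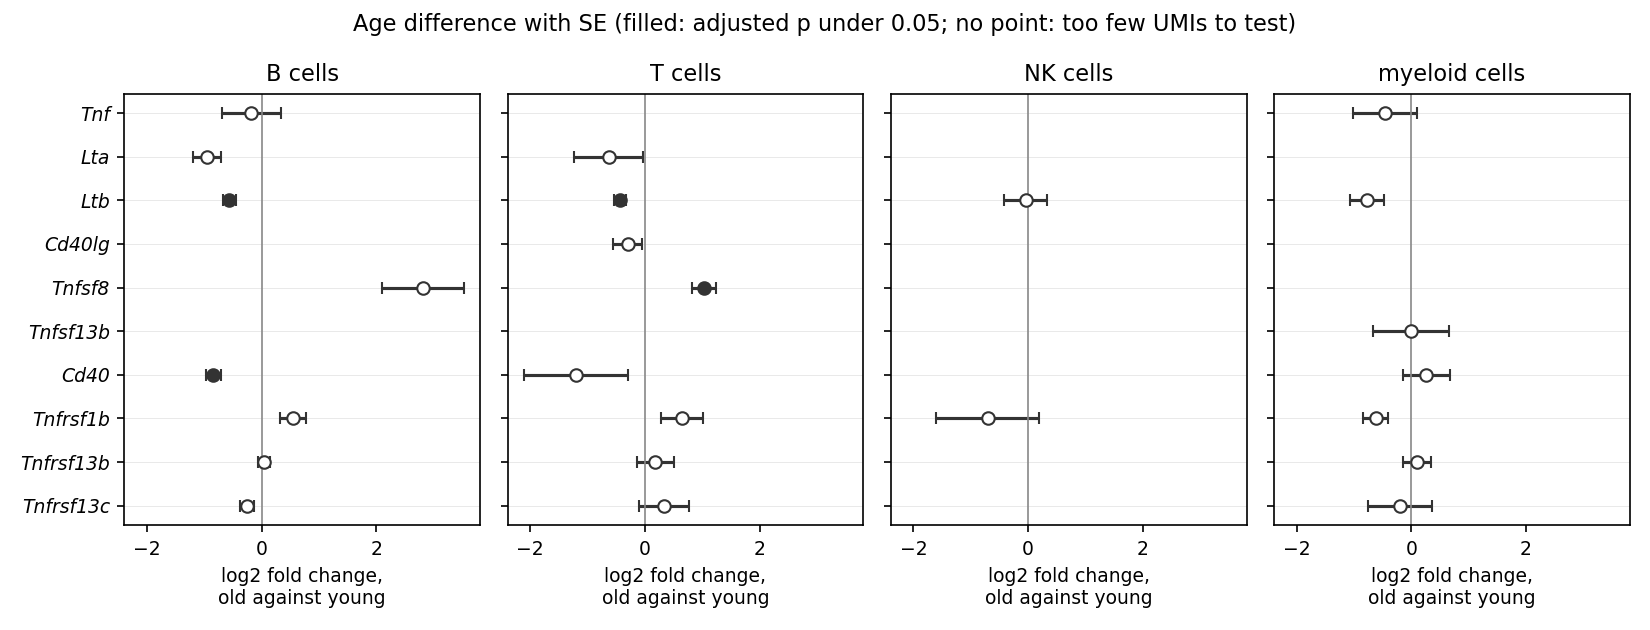
Log2 fold change of old against young samples (horizontal axis) with its SE for each gene (vertical axis) in the 4 classes, from 2 samples per age. Filled points passed the test, namely Ltb and Cd40 in B cells and Ltb and Tnfsf8 in T cells, and genes without a point had under 20 UMIs in the class.

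Whether the age change differed among the 4 classes was tested by the age-by-class terms of the joint fit. Of the 10 genes 2 passed, Tnfsf8 (adjusted p = 0.000256) and Tnfrsf1b (adjusted p = 0.00664), where 4.22% of all genes did. The log2 fold change of Tnfsf8 with age was larger in B than in T cells, the difference being 1.66 (SE 0.36, adjusted p = 0.000770). Tnfrsf1b had a log2 fold change of 0.55 in B, 0.65 in T, -0.70 in NK and -0.62 in myeloid cells, none of them called within its class. The NK value rested on 24 UMIs (SE 0.89). Of the class pairs only B against myeloid cells passed for Tnfrsf1b (difference 1.09, SE 0.28, adjusted p = 0.0109). T against myeloid cells did not pass (adjusted p = 0.120). Neither gene passed with DESeq2, with thinned cells or among genes seen in 10% of the cells of a class. Tnfsf8 was also lost without old sample 2 (adjusted p of the age-by-class terms = 0.641), and Tnfrsf1b without young sample 1 (0.477), without young sample 2 (0.169) and with the stricter gate (0.504).

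The rise of Tnfsf8 in T cells was then followed into the T cell subsets, where 1 of 5 genes was called in Cd4+ cells (1.52% of all genes) and 0 of 5 in Cd8+ cells (1.75%). Of 2214 T cells, 397 were Cd4+ and 682 Cd8+, with 88 and 158 of the 422 Tnfsf8 UMIs of T cells. The other T cells fell in neither subset, and their change with age was not tested. In Cd4+ cells Tnfsf8 stood at 58.6 and 58.8 CPM in the young and 205 and 196 CPM in the old samples. The old samples lay well above the young ones, at 2.98-fold (log2 fold change 1.58, SE 0.34, adjusted p = 0.00658). Those values came from 34 and 26 old cells, of which 13 and 9 carried a UMI, against 25 of 199 and 20 of 138 young cells. In Cd8+ cells it stood at 66.8 and 71.6 CPM in the young and 88.4 and 46.6 CPM in the old samples, which overlap (log2 fold change -0.04, SE 0.31, adjusted p = 0.987). The difference between the 2 subsets in this change was not tested. The call in Cd4+ cells was lost without old sample 1, with DESeq2, with thinned cells and with either other gate, over an adjusted p of up to 0.322. Ltb was not called in Cd4+ cells (log2 fold change -0.29, SE 0.17, adjusted p = 0.596) or in Cd8+ cells (-0.23, SE 0.14, adjusted p = 0.614).

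**Figure D4:**
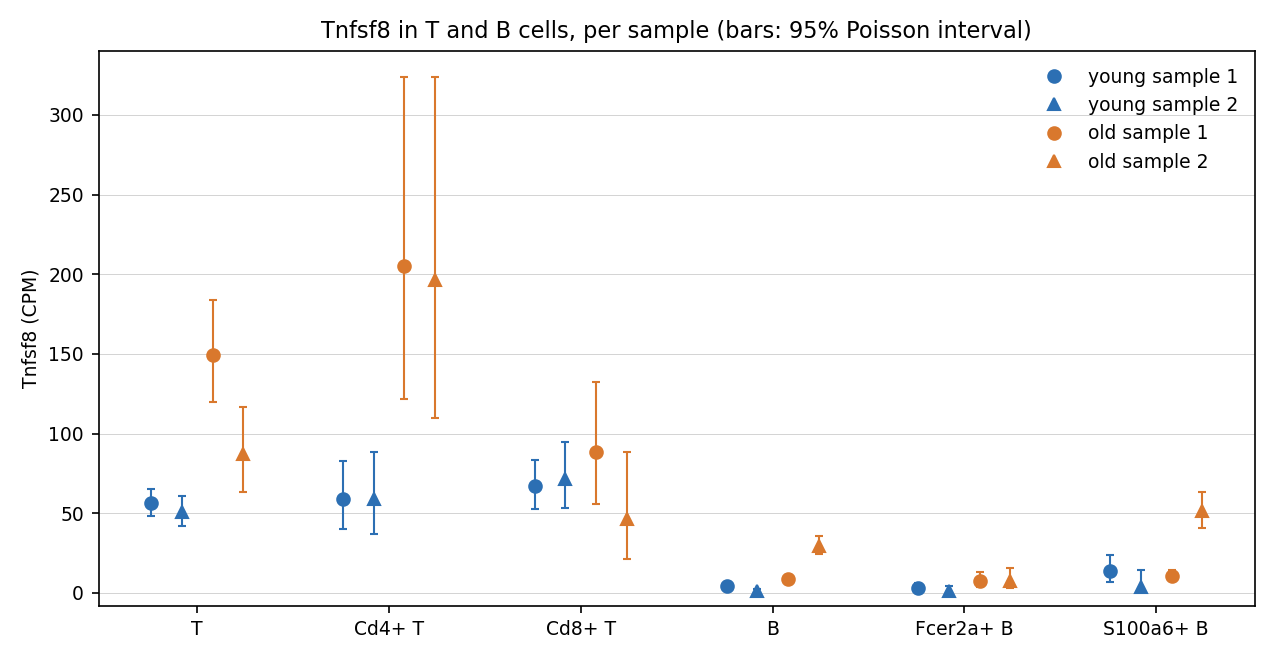
Tnfsf8 in CPM (vertical axis, linear) in T and B cells and their subsets (horizontal axis), 1 point per sample with its 95% Poisson interval, which covers counting error only. The old samples stand above the young ones in T, Cd4+ T, B and Fcer2a+ B cells, and overlap with them in Cd8+ T and S100a6+ B cells.

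A group of 8 T cells, all from old sample 1, held a UMI of Csn2, a casein gene. They carried 9 Tnfsf8 UMIs in 5 cells (62.5%, 95% exact interval 24.5% to 91.5%) and 2 Cd40lg UMIs in 2 cells. The other 197 T cells of that sample carried a Tnfsf8 UMI in 28.4% and a Cd40lg UMI in 6.09%. Without the 8 cells Tnfsf8 in that sample was 138 CPM, still above both young samples.

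B cells were split into 2598 Fcer2a+ cells, with a UMI of the gene of CD23 that naive follicular B cells carry, and 1792 S100a6+ cells, with 2 or more UMIs of S100a6 and none of Fcer2a, whose median UMIs per cell were 2170.0 and 3880.5. The makeup of the B cells moved with age, as Fcer2a+ cells made up 43.8% and 41.0% of young B cells but 23.9% and 26.0% of old B cells, and S100a6+ cells 9.82% and 6.22% of young B cells but 47.9% and 30.3% of old ones. Of the 8 genes tested, 5 were called between the subsets, where 15.1% of all genes were. Cd40 was lower in S100a6+ cells (1.94-fold, adjusted p = 8.88e-05), and so were Ltb (1.81-fold, adjusted p = 1.88e-07) and Tnfrsf13c (1.81-fold, adjusted p = 2.37e-06). Tnfsf8 was higher in them (3.56-fold, adjusted p = 0.000301), and so was Tnfrsf1b (2.20-fold, adjusted p = 0.00580). For each of these 5 genes the 4 samples moved the same way from one subset to the other. Tnfrsf13b did not differ (log2 fold change 0.02, SE 0.12, adjusted p = 0.938) and moved both ways among the samples.

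**Figure D5:**
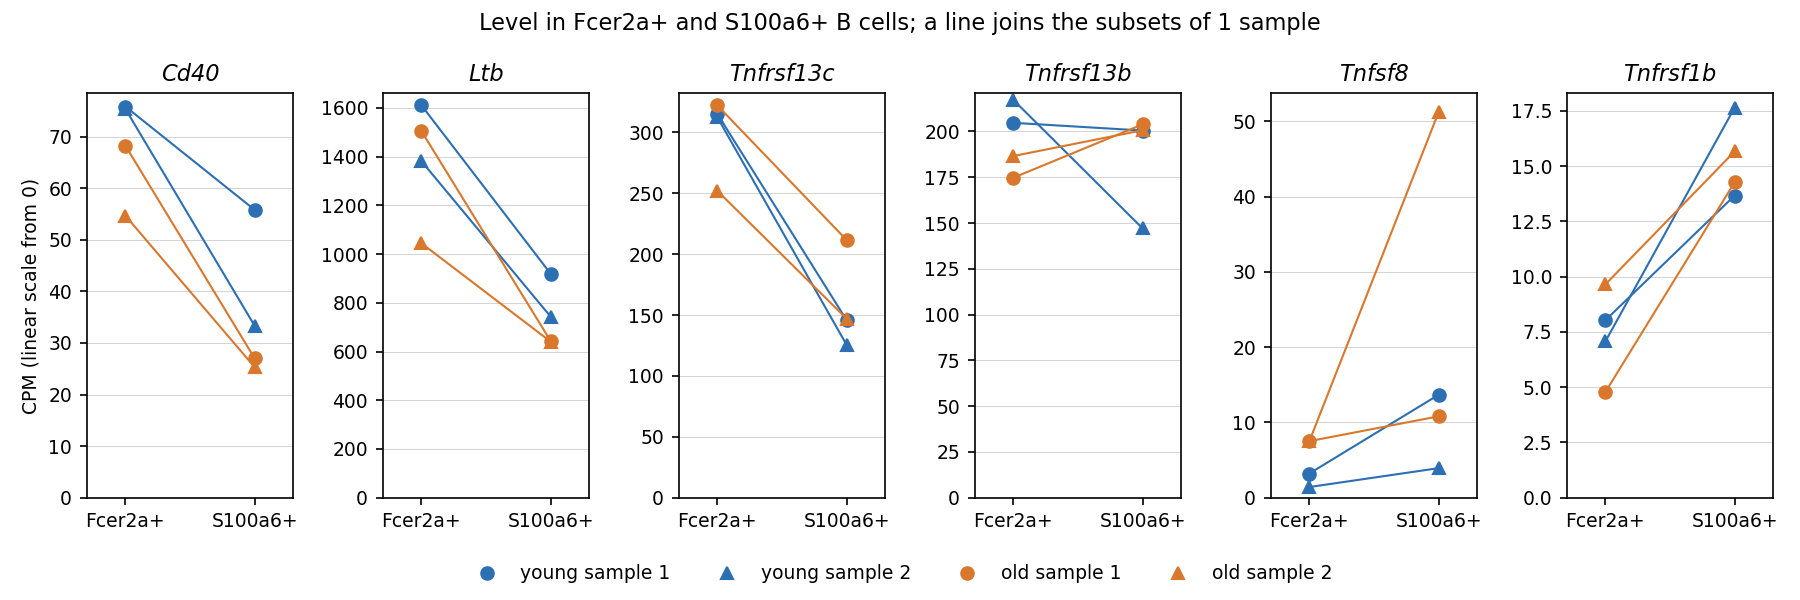
Level in CPM (vertical axes, linear, each from 0) of 6 genes in Fcer2a+ and S100a6+ B cells, with a line joining the subsets of each sample. Cd40, Ltb and Tnfrsf13c go down and Tnfsf8 and Tnfrsf1b go up in all 4 samples, and Tnfrsf13b goes both ways.

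Within the subsets no gene was called with age, at 0 of 8 in Fcer2a+ cells (0.852% of all genes) and 0 of 7 in S100a6+ cells (0.170%). By unadjusted p under 0.05 the counts were 1 and 2, with 832 and 793 of all genes below it, and DESeq2 called 0 in both. Cd40 in Fcer2a+ cells was 75.9 and 75.4 CPM in the young and 68.3 and 54.7 CPM in the old samples, lower in both old samples (log2 fold change -0.22, SE 0.16, adjusted p = 0.744). In S100a6+ cells it was 55.8 and 33.3 CPM in the young and 27.0 and 25.3 CPM in the old samples (-0.81, SE 0.29, adjusted p = 0.476). Ltb overlapped in Fcer2a+ cells, at 1611 and 1382 CPM in the young and 1505 and 1044 CPM in the old samples (-0.17, SE 0.13, adjusted p = 0.765). In S100a6+ cells it was 919 and 743 CPM in the young and 643 and 641 CPM in the old samples (-0.38, SE 0.17, adjusted p = 0.584). Tnfsf8 in S100a6+ cells was 13.7 and 3.92 CPM in the young and 10.8 and 51.2 CPM in the old samples, high in old sample 2 alone. Tnfrsf13c in S100a6+ cells was 146 and 125 CPM in the young and 212 and 147 CPM in the old samples. It was thus higher in both old samples there (0.39, SE 0.21, adjusted p = 0.694) and overlapped in Fcer2a+ cells (-0.06, SE 0.12). Tnfrsf1b overlapped in both subsets (-0.11, SE 0.45, and -0.05, SE 0.38). The part of the changed makeup in the differences of B cells as a whole was not tested.

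Myeloid cells were split by Ly6c2, the marker of classical monocytes, into 420 cells with 2 or more UMIs and 443 with none. Ly6c2+ cells made up 34.6% and 25.6% of young myeloid cells, beside 52.6% and 54.9% of old ones. Of 7 genes tested 2 were called between the subsets (12.4% of all genes), and both were lower in Ly6c2+ cells, Ltb by 4.12-fold (adjusted p = 4.45e-09) and Tnfrsf1b by 2.07-fold (adjusted p = 8.08e-05). Tnfrsf1b stood at 116 and 104 CPM in young and 101.4 and 88.1 CPM in old Ly6c2+ cells. In Ly6c2-negative cells it was 335 and 216 CPM in the young and 249.6 and 117 CPM in the old samples, which overlap. With age 0 of 5 genes were called in Ly6c2+ cells (0.113% of all genes) and 0 of 5 in Ly6c2-negative cells (0.0353%). At an unadjusted p under 0.05 these counts were again 0 and 0, with 531 and 268 of all genes below it, and DESeq2 called none of them.

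The cells outside the gates were 3549 of 14588, with a median of 4345 UMIs per cell. They held 647 of the 1295 Tnfsf8 UMIs, 43.6% of the UMIs of Tnfsf13b (34 UMIs) and 26.4% of those of Cd40. Whether these shares differ from the share of all genes was not tested. Tnfsf8 in these cells was 31.3 and 20.4 CPM in the young and 33.0 and 57.5 CPM in the old samples. A gate by the dominant marker sum, which took in 93.2% of cells, left the calls of Cd40 and Ltb in B cells and of Tnfsf8 and Ltb in T cells in place.

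A wider list of 59 genes of the family and of its signalling was set beside these, 12 ligands, 24 receptors and 23 signal transducers, of which 54 are in the table. In T cells 38 were tested, 2 rose and 1 fell, where 2.82% of all genes were called, with a median log2 fold change of 0.10 beside -0.02 over all genes. Tnfrsf4, the gene of OX40, rose from 16.8 and 19.4 CPM in the young to 54.2 and 105 CPM in the old samples (4.01-fold, adjusted p = 0.00178). Tnfrsf18, the gene of GITR, rose from 98.1 and 91.0 CPM to 161 and 153 CPM (1.53-fold, adjusted p = 0.0463), and both receptors are carried by regulatory and activated T cells. Cd27, a costimulatory receptor of naive and memory T cells, fell from 356 and 329 CPM to 252 and 264 CPM (1.44-fold, adjusted p = 0.0321). For each of the 3 genes the old and young samples did not overlap.

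In B cells 41 of the list were tested, 1 rose and 0 fell, where 3.38% of all genes were called, with a median log2 fold change of -0.11 beside 0.00 over all genes. Relt, a receptor of the family, was the one that rose, from 20.2 and 14.0 CPM in the young to 46.6 and 28.9 CPM in the old samples (2.33-fold, adjusted p = 0.0468). Tnfrsf8, which encodes CD30, the receptor of the Tnfsf8 ligand, was 7.16 and 0.810 CPM in the young and 25.9 and 13.9 CPM in the old B cells and did not pass (adjusted p = 0.0899). No gene of the list was called among 19 tested in NK cells (0.264% of all genes) or 35 in myeloid cells (0.504%), and their median log2 fold changes were -0.37 and -0.16 beside -0.01 and 0.00 over all genes.

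Over the 16 sums of class and sample, the genes most like these were found by Pearson's correlation of log2(CPM + 1), as a description over points that share libraries and depth. Cd40lg ran closest to Themis (r = 0.973), a gene of T cell development, and then to Tdrp (0.970). Tnfrsf13c ran closest to Txndc16 (0.962) and Cnn3 (0.938), and Tnfrsf13b also to Txndc16 (0.938) and then Pold4 (0.933). Ltb followed the ribosomal protein genes Rps27 (0.971) and Rps13 (0.968), and Tnfrsf1b followed Plin2 (0.951) and Vamp8 (0.949). Cd40 ran with 5031414D18Rik and Pgls (both 0.958), Lta with Rab3gap1 (0.890) and RP23-60P18.10 (0.879), and Tnfsf8 with 2010111I01Rik (0.880) and Tnfaip8l1 (0.874). Tnf and Tnfsf13b had under 100 UMIs over the sums and were not ranked.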

How the data were processed

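Blood cells of 2 young and 2 old samples were analysed. The values are raw UMI counts that the authors produced with Cell Ranger on mm10, merging the duplicates of an age and filtering cells in Seurat 2.3.0. No normalization was applied to the deposited counts. Not given in the sources used here is the release of the gene annotation, nor whether merging evened out depth. Every cell was placed in its sample by the deposited list of cells, and 0 columns of values were left unused.

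Cells were gated by raw marker UMIs (own sum at least 2, each other sum at most 1, any NK sum in T cells, a T sum of 0 in NK cells), which leaves out cells with 2 or more marker UMIs of 2 classes, apart from T and NK doublets, which stay among T cells, and no doublet caller was run. UMIs were summed per class and sample. Old and young were compared with edgeR 4.0.16 (quasi-likelihood test, TMM, at least 20 UMIs over the samples, Benjamini-Hochberg adjustment over all genes tested, threshold 0.05), and classes over the 16 sums with the sample as a block. The SE was taken as the fold change divided by the root of the F statistic. DESeq2 1.42.0 was an alternative. Gating and figures used Python 3.11.15 (matplotlib 3.10.9, pandas 2.3.3, scipy 1.17.1, numpy 2.4.6) and the fits R 4.3.3. The fits were tested on simulated counts. Samples are the replicates, p-values rest on 2 pools per age, and intervals (95%, exact binomial or Poisson) cover counting error only. Ambient RNA can put UMIs of a gene into droplets of other cells, for which reason shares of cells are read against a class expected to lack the gene.

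The 10 genes, the wider list and the markers were chosen with earlier results of these data known. Named genes are the 10, the markers (with the genes that split a class and Csn2), each gene of the wider list called with age in a class, and the 2 genes most alike for each gene with 100 or more UMIs. Tnfrsf8, Tnfsf4, Tnfsf18 and Tnfrsf19 were named after their values were seen. The comparisons between subsets, the dominance gate (own sum at least 3 times each other), the crossed pairing and the fits without platelet droplets or haemoglobin genes were added after the data were seen. Tnfsf13, Cd70, Eda, Edar and Eda2r of the wider list were not analysed here. The level of 1 marker gene is not reported here.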

Additional observations from a re-analysis of the deposited data

Results flagged for a closer look

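The age change of Tnfsf8 differed among B, T, NK and myeloid cells (adjusted p of the age-by-class terms = 0.000256, edgeR), with log2 fold changes of 2.81 in B and 1.03 in T cells. The adjusted p was 0.641 without old sample 2, 0.443 with DESeq2, 0.102 with thinned cells and 0.367 among genes seen in 10% of the cells of a class. In the other 10 settings it stayed under the threshold, from 4.54e-12 without old sample 1 to 0.0354 without young sample 2.

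The age change of Tnfrsf1b differed among the classes too, and of the class pairs only B against myeloid cells passed (adjusted p = 0.0109, edgeR). The adjusted p of the age-by-class terms was 0.00664. Values were 0.55 in B, 0.65 in T, -0.70 (SE 0.89) in NK and -0.62 in myeloid cells. The adjusted p was 0.504 with the stricter gate, 0.847 with thinned cells, 0.266 with DESeq2, 0.0800 among genes seen in 10% of the cells of a class, 0.477 without young sample 1 and 0.169 without young sample 2.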

How the results depend on the processing

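Of 866 refits of 60 age changes of single genes, 822 kept the side of the threshold, 27 lost and 17 gained the call, and 0 called values turned. Of the 10 genes, 2 were called with age in B cells, but 0 with a stricter gate (at least 3 UMIs), and 1 under each of 10% detection, no filter on low counts and, added later, without platelet droplets. In T cells the 2 became 0 with the stricter gate and 1 with thinned cells, DESeq2, RLE normalization or without platelet droplets. The 1 in Cd4+ T cells became 0 with the stricter gate, thinned cells, DESeq2 or the dominance gate, and the 0 in myeloid cells became 1 with no filter. The 2 age-by-class differences became 1 with the stricter gate and 0 with thinned cells, 10% detection or DESeq2. Leaving out 1 sample at a time gave 0 to 4 calls in B, 0 to 2 in T, 0 to 2 in myeloid, 0 to 1 in Cd4+ T, 0 to 1 in Fcer2a+ B, 0 to 3 in S100a6+ B and 0 to 2 in Ly6c2-negative myeloid cells, and 1 to 3 age-by-class differences. The numbers of the 10 genes called between classes stayed within 1.5 times under every alternative run. The cause was not tested where a count moved, apart from the smaller number of samples or genes. With 1 sample in an age, that sample is assumed to vary like the others.

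The replicate numbers shared by young and old samples are only numbers (correlation of deviations -0.04 in B, -0.13 in T, 0.07 in NK and -0.09 in myeloid cells). With them as a replicate block, 1 gene was called in B and 1 in T cells. With the crossed pairing, Tnfsf8 was called in B cells beside Cd40 and Ltb, and 1 gene was called in S100a6+ B cells. Over all genes, 363 were called in B cells (53 with 10% detection, 208 with no filter, 832 with the crossed pairing, 115 to 1643 with 1 sample left out), 258 in T cells (115 with the stricter gate, 156 with DESeq2, 596 with no filter, 495 with the crossed pairing), 40 in myeloid cells (7 with the block, 9 thinned, 229 with no filter) and 11 in NK cells (0 with DESeq2, the stricter gate or thinned cells). Leaving out droplets with platelet or haemoglobin RNA left 0 cells in a sample and could not be fitted. Genes under 20 UMIs in a class could not be judged at this depth, such as Tnf in T cells and Cd40lg in B cells.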

Other observations

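The genes of a pair of ligands of the wider list were read in B cells of the old samples alone. Tnfsf4, the gene of the OX40 ligand, was 0 and 0 CPM in the young and 1.05 and 8.71 CPM in the old samples, from 43 UMIs (adjusted p = 0.124, edgeR). Tnfsf18, the gene of the GITR ligand, was 0 and 0 CPM in the young and 1.45 and 2.99 CPM in the old samples, from 23 UMIs (adjusted p = 0.0645). Tnfrsf19 was 1.47 and 0.202 CPM in the young and 9.08 and 3.98 CPM in the old samples (adjusted p = 0.0645). None of the 3 passed the threshold, and they were picked after their values were seen.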
